A study of Arabidopsis thaliana with 32 samples.

Results

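The transcriptional response to the synthetic auxin NAA (1-naphthaleneacetic acid) was described in Arabidopsis thaliana seedlings labelled fip37 LEC1:FIP37. It rests on 6 RNA-seq libraries, 3 from seedlings given 50 µM NAA and 3 from mock-treated seedlings of the same line, all 15 days old and treated for 3 h. The 6 libraries are part of a series of 32, which also holds 6 RNA-seq libraries from wild type under the same treatments. The rest are m6A immunoprecipitates with their inputs from wild type, tmk4-1, 35S:FIP37 and 35S:FIP373A seedlings, likewise 15 days old. Wild type has m6A libraries of both treatments and tmk4-1 of NAA alone, with dose and duration as above. For 35S:FIP37 and 35S:FIP373A the labels record neither dose nor duration. The authors' table gives RPKM, mapped reads scaled by gene length and library total, for 34262 genes. Of these, the 18072 with a mean of at least 1 RPKM over the 12 RNA-seq libraries were tested, and the other 16190 were not. By its label the line is a fip37 mutant with FIP37 driven by LEC1, whose promoter is active in embryos. Mock and NAA seedlings alike hold the transgene. The labels name neither a second line nor a control transgene, and they do not say whether replicates came from separate cultures, so p-values measure the spread between these libraries.

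Auxin enters transcription when it brings Aux/IAA repressors together with TIR1/AFB receptors, which marks the repressors for degradation and frees ARF transcription factors. Among the genes that respond early are those of the repressors themselves, of GH3 enzymes that join auxin to amino acids, and of SAUR proteins that promote cell expansion. In roots, auxin also starts lateral root formation through LBD transcription factors. FIP37 belongs to the enzyme complex that places m6A, a methylation of adenosine in mRNA, and the series asks how auxin and this mark are linked.

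FIP37 (AT3G54170) itself stood at 58.4, 120.1 and 83.9 RPKM with NAA, against 57.9, 87.3 and 91.8 RPKM with mock in the line. In wild type it stood at 23.3, 20.8 and 11.3 RPKM with NAA, against 11.3, 12.4 and 11.3 RPKM with mock. Every library labelled fip37 LEC1:FIP37 thus had a higher FIP37 RPKM than every wild-type library, and any direction drawn between the genotypes is one between libraries so labelled. RPKM per gene does not separate transgene from endogenous transcripts. NAA did not change FIP37 detectably in the line (log2 fold change 0.11, SE 0.29, adjusted p = 0.997). The libraries of the line held 92.2% to 124% of the reads of its first mock library, estimated from the steps of low values, and 22694 to 23359 genes were above 0 in each of the 12 RNA-seq libraries. The leaf photosynthesis markers, a list that also holds GL2, not a photosynthesis gene, summed to 33326 to 38035 RPKM with NAA, against 32565 to 40794 RPKM with mock. The embryo and seed markers (none of 6 tested) summed to at most 0.697 RPKM in any library of the line. Wild-type NAA library 3 was far from the rest of its group, with 1718 tested genes at least 2-fold from the mean of its group's other libraries. In the 6 libraries of the line that number was between 148 and 312. To the effect of NAA in the line that wild-type library adds only to the estimate of the spread, and counts are given with and without it.

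In the line, 79 of 18072 genes were called with NAA against mock (0.437% of genes tested), 68 higher and 11 lower (0.376% and 0.0609%). Called means that limma gave a Benjamini-Hochberg adjusted p under 0.05, fitted to log2(RPKM + 1) across all 12 libraries, and every fold change below is on that scale, which understates the change of low genes. The called higher genes had log2 fold changes between 0.57 and 3.32 with a median of 1.16, and the called lower genes between -0.77 and -1.76 with a median of -0.98. The median over all tested genes was -0.04, with quartiles of -0.15 and 0.08. On this scale 45 genes were at least 2-fold higher, 5 at least 4-fold higher and 5 at least 2-fold lower. In each of the 79 the 3 NAA libraries did not overlap the 3 mock libraries, as was also so for 5.28% of all tested genes upwards and 7.31% downwards. The mean level of the called genes over the 12 libraries had a median of 9.18 RPKM, against 9.52 RPKM for all tested genes. The called genes GATA23, RGF8, PUCHI, AHP6, NAC076 and UNG averaged under 1 RPKM outside the NAA libraries of the line, so they were tested only through the group in which they were high. ATHB17 was tested only through wild-type NAA. Over all tested genes 3.29% were higher and 5.02% lower at an unadjusted p under 0.05, and the counts at that threshold below are to be read against these shares. Counts of called members and of members without overlap are likewise to be read against 0.376% and 0.0609% called, and 5.28% and 7.31% not overlapping. Counts of members above or below 0 are to be read against 41.4% and 58.6% of all tested genes.

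**Figure D1:**
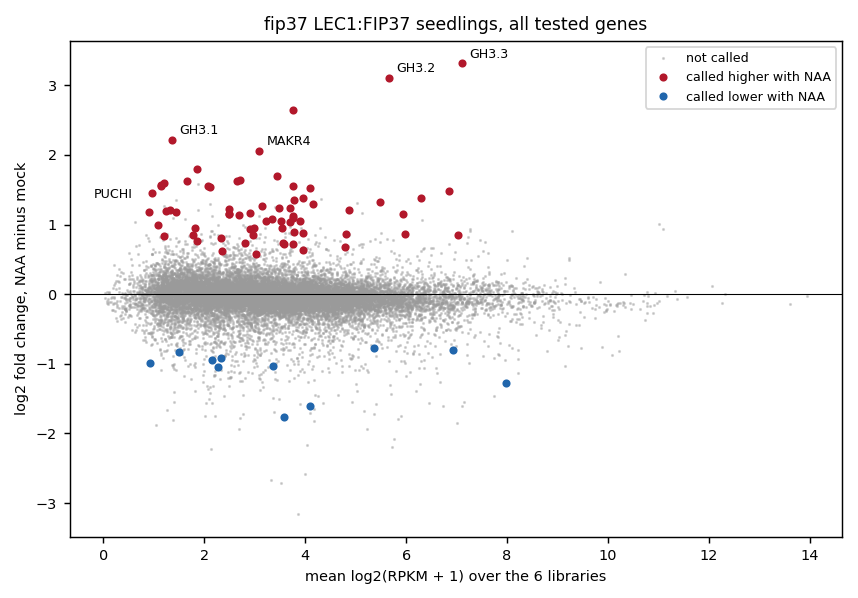
Log2 fold change with NAA in the line (vertical axis) against mean log2(RPKM + 1) over its 6 libraries (horizontal axis) for 18072 tested genes. Red points are the 68 genes called higher, blue points the 11 called lower and grey points the rest; GH3.3 is highest at 3.32, and several grey points below -2 were not called.

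The count depended on the libraries in the fit. Without NAA library 2 or 3 of the line limma called 36 and 50 genes, and without its mock library 2 or 3 it called 31 and 51. Without wild-type NAA library 3 it called 201, 130 higher and 71 lower, which include all 79. The fit on the 6 libraries of the line alone called 72, 61 higher and 11 lower, which include 51 of the 68 and 5 of the 11. Of the 68 higher genes 25 were called in every fit that left out 1 of the 12 libraries, and of the 11 lower genes 1 was, AT5G06730.

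Genes of the GH3 family, whose enzymes attach amino acids to auxin, carried the highest fold changes. Of 7 tested members 5 were called higher and none lower (71.4%, against 0.376% of all genes), with a median log2 fold change of 1.49. GH3.3 (AT2G23170) stood at 359.6, 444 and 515 RPKM with NAA, against 47.8, 29.3 and 55.6 RPKM with mock (log2 fold change 3.32, SE 0.21, adjusted p = 3.95e-05). Its relative GH3.2 (AT4G37390) stood at 153, 133 and 156 RPKM with NAA, against 9.21, 21.2 and 21.3 RPKM with mock (log2 fold change 3.11, SE 0.28, adjusted p = 0.000925). In both genes every NAA library was well clear of every mock library. GH3.5 (AT4G27260) had 167, 213 and 195 RPKM with NAA, against 69.2, 66.3 and 66.9 RPKM with mock (log2 fold change 1.49, SE 0.17, adjusted p = 0.00275), and GH3.6 (AT5G54510) had 61.4, 79.0 and 70.2 RPKM with NAA, against 26.1, 26.3 and 29.9 RPKM with mock (log2 fold change 1.32, SE 0.21, adjusted p = 0.0167). GH3.1 (AT2G14960) was near 0 with mock, at 0.218, 0.117 and 0.256 RPKM, and had 5.39, 3.26 and 5.32 RPKM with NAA (log2 fold change 2.22, SE 0.31, adjusted p = 0.00672). The other tested members, GH3.17 (AT1G28130) and GH3.9 (AT2G47750), were not called (log2 fold changes 0.45 and -0.01, adjusted p = 0.361 and 0.999). The call of GH3.6 was lost without NAA library 2, NAA library 3, mock library 1 or mock library 2 (adjusted p = 0.0604 to 0.093), and the other 4 were called in every fit that left out 1 library.

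**Figure D2:**
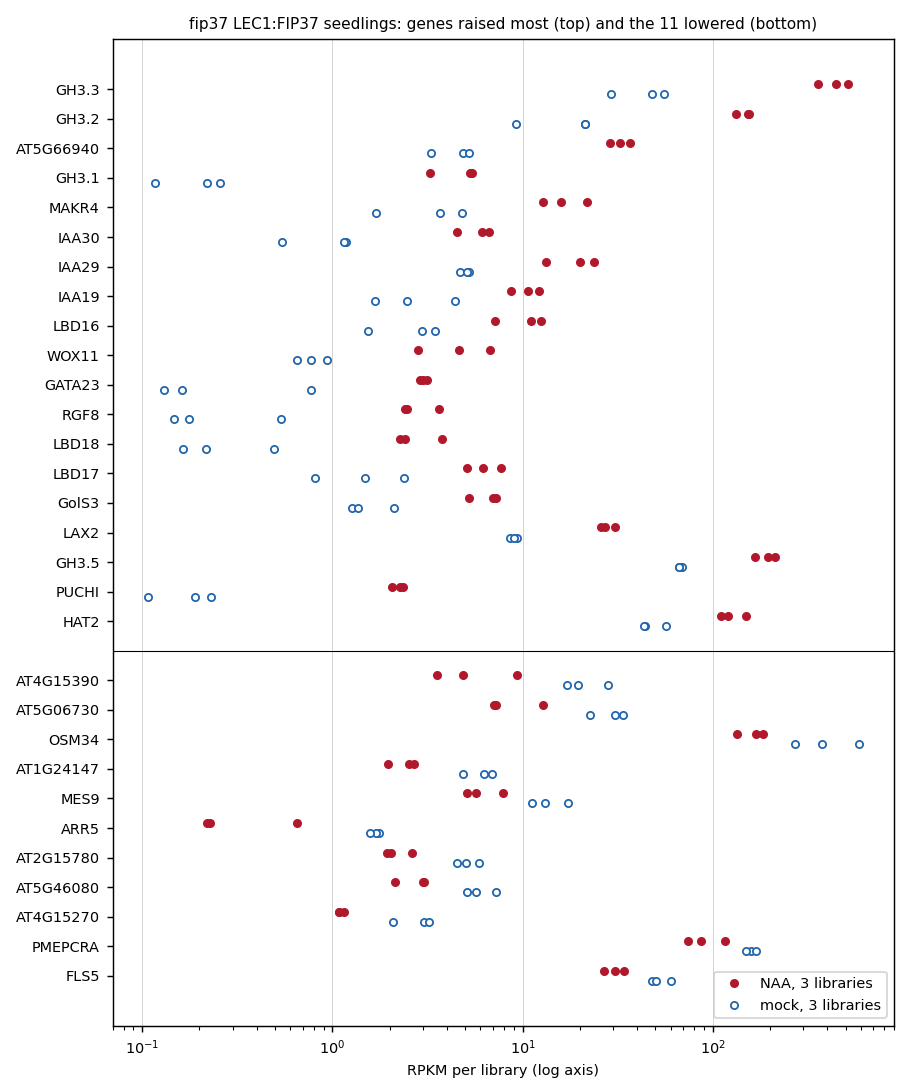
RPKM in each library of the line (log axis) for 19 of the 20 called genes with the highest log2 fold change (upper rows) and the 11 called lower genes (lower rows). Filled red points are the 3 NAA libraries and open blue points the 3 mock libraries; in no row do the groups overlap.

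Among genes of the Aux/IAA repressors of auxin signalling, 6 of 24 tested members were called higher and none lower, against 0.376% of all tested genes higher. The median log2 fold change was 0.29. In 12 of the 24 all NAA libraries lay above all mock libraries, against 5.28% of all tested genes. IAA30 (AT3G62100) had 4.51, 6.15 and 6.68 RPKM with NAA, against 0.546, 1.19 and 1.15 RPKM with mock (log2 fold change 1.79, SE 0.25, adjusted p = 0.00711). IAA29 (AT4G32280) had 13.2, 20.2 and 23.8 RPKM with NAA, against 5.25, 4.67 and 5.13 RPKM with mock (log2 fold change 1.70, SE 0.20, adjusted p = 0.00275), and IAA19 (AT3G15540) had 8.69, 12.2 and 10.7 RPKM with NAA, against 1.67, 2.47 and 4.42 RPKM with mock (log2 fold change 1.64, SE 0.23, adjusted p = 0.00672). In all 3 the lowest NAA library was clear of the highest mock library. IAA1 (AT4G14560) had 22.2, 33.5 and 26.3 RPKM with NAA, against 9.36, 8.87 and 13.3 RPKM with mock (log2 fold change 1.299, SE 0.17, adjusted p = 0.00544). IAA13 (AT2G33310) had 17.8, 22.1 and 17.1 RPKM with NAA, against 7.65, 7.02 and 7.71 RPKM with mock (log2 fold change 1.23, SE 0.13, adjusted p = 0.0018), and IAA11 (AT4G28640) had 7.70, 10.7 and 10.2 RPKM with NAA, against 5.47, 3.96 and 5.14 RPKM with mock (log2 fold change 0.84, SE 0.16, adjusted p = 0.0465). Among members just short of the threshold were IAA5 (AT1G15580), at 2.34, 6.13 and 2.35 RPKM with NAA, against 0.695, 0.784 and 0.587 RPKM with mock (1.35, adjusted p = 0.0709), and IAA2 (AT3G23030), at 165, 259.6 and 209.6 RPKM with NAA, against 116, 106 and 111 RPKM with mock (0.90, adjusted p = 0.0757). The calls of IAA30 and IAA19 were lost without NAA library 2 of the line (adjusted p = 0.0558 for IAA30 and 0.0528 for IAA19), and that of IAA11 without NAA library 2, NAA library 3, any mock library, wild-type NAA library 2 or any wild-type mock library (adjusted p = 0.0711 to 0.239). Without wild-type NAA library 3 9 of the 24 were called higher.

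Genes that act in lateral root formation made up the third group. Of 17 tested members of that list 6 were called higher and none lower, against 0.376% of all tested genes higher. GATA23 and PUCHI among the 6 were tested only through the NAA libraries of the line, so their calls are descriptions. All counts of this list include both, and are descriptions to that extent. The called members without that limit were MAKR4, LBD16, LBD17 and LBD18. The median log2 fold change was 0.69. In 10 of 17 the NAA libraries all lay above the mock libraries, against 5.28% of all tested genes. Without wild-type NAA library 3 limma called 8 of the 17 higher, with median-ratio scaling 9 and with quantile normalization 10. MAKR4 (AT2G39370), a membrane-associated kinase regulator of lateral root positioning, had 12.8, 21.7 and 15.9 RPKM with NAA, against 1.69, 3.68 and 4.78 RPKM with mock (log2 fold change 2.06, SE 0.25, adjusted p = 0.00382). LBD16 (AT2G42430), a transcription factor of lateral root initiation, had 7.15, 12.5 and 11.1 RPKM with NAA, against 1.54, 2.97 and 3.47 RPKM with mock (log2 fold change 1.63, SE 0.25, adjusted p = 0.0164), and its neighbour on the chromosome LBD17 (AT2G42440) had 5.09, 7.69 and 6.17 RPKM with NAA, against 0.808, 2.38 and 1.48 RPKM with mock (log2 fold change 1.55, SE 0.29, adjusted p = 0.0414). LBD16 and LBD17 were the only called genes next to each other in the annotation. LBD18 (AT2G45420) had 2.40, 3.78 and 2.27 RPKM with NAA, against 0.492, 0.165 and 0.216 RPKM with mock (log2 fold change 1.55, SE 0.19, adjusted p = 0.00368), and GATA23 (AT5G26930), a transcription factor of lateral root founder cells, had 2.99, 3.13 and 2.88 RPKM with NAA, against 0.162, 0.130 and 0.769 RPKM with mock (log2 fold change 1.59, SE 0.17, adjusted p = 0.00204). Mock levels of these last genes were under 1 RPKM in every library. PUCHI (AT5G18560), a transcription factor that patterns the lateral root primordium, had 2.26, 2.35 and 2.05 RPKM with NAA, against 0.108, 0.231 and 0.189 RPKM with mock (log2 fold change 1.45, SE 0.15, adjusted p = 0.00158). Every NAA library of PUCHI was above 2 RPKM and every mock library under 1 RPKM. LBD29 (AT3G58190) lay just outside the threshold at 0.969, 1.78 and 0.968 RPKM with NAA, against 0.0558, 0 and 0.177 RPKM with mock (1.04, adjusted p = 0.051), with 1 mock library at 0. It was tested only through wild-type NAA, with a mean of 3.68 RPKM there and 0.167 RPKM in wild-type mock. Its value is a description.

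Outside the lists, WOX11 (AT3G03660), a homeobox transcription factor of new root founder cells, had 2.81, 6.75 and 4.65 RPKM with NAA, against 0.648, 0.939 and 0.775 RPKM with mock (log2 fold change 1.63, SE 0.22, adjusted p = 0.00672). RGF8 (AT2G03830), which encodes a root growth factor peptide, had 2.46, 3.63 and 2.41 RPKM with NAA, against 0.146, 0.177 and 0.540 RPKM with mock (log2 fold change 1.57, SE 0.18, adjusted p = 0.00275). GolS3 (AT1G09350), for a galactinol synthase, had 7.24, 6.96 and 5.24 RPKM with NAA, against 1.26, 1.36 and 2.11 RPKM with mock (log2 fold change 1.54, SE 0.24, adjusted p = 0.0167). AT5G66940, which is not named in the annotation used, had 32.7, 28.9 and 36.5 RPKM with NAA, against 4.84, 5.21 and 3.32 RPKM with mock (log2 fold change 2.64, SE 0.41, adjusted p = 0.0162). In all 4 genes the groups were clear of each other, and RGF8 was tested only through the NAA libraries of the line. The root cell markers summed to 782 to 862 RPKM with NAA, against 900.2 to 1301 RPKM with mock, and 10 of 12 had log2 fold changes below 0, with a median of -0.29. Their part in the lateral root result was not tested. The marker with the largest fold change, the nitrate transporter gene NRT2.1 (AT1G08090), had 1.28, 1.47 and 0.491 RPKM with NAA, against 5.38, 5.67 and 18.9 RPKM with mock (-2.22, adjusted p = 0.132), whereas WOX5 (AT3G11260), of the root stem cell niche, had 2.80, 3.51 and 3.49 RPKM with NAA, against 1.39, 1.79 and 1.80 RPKM with mock (0.68, adjusted p = 0.127). Neither was called, and without wild-type NAA library 3 limma called 1 of the 12 markers higher and 1 lower. The call of LBD16 was lost without NAA library 2, NAA library 3 or mock library 2 (adjusted p = 0.0552 to 0.0918), that of LBD17 without any 1 of its 6 libraries, wild-type NAA library 1 or any wild-type mock library (adjusted p = 0.0552 to 0.173), that of GolS3 without NAA library 1, NAA library 2, mock library 1 or mock library 2 (adjusted p = 0.0604 to 0.0918) and that of AT5G66940 without any NAA library, mock library 2 or mock library 3 (adjusted p = 0.0552 to 0.0725). PUCHI fell under a mean of 1 RPKM without any of its NAA libraries and was not tested there.

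Of 22 tested auxin transport genes 3 were called higher and none lower, against 0.376% of all tested genes higher. The median log2 fold change was 0.18. In 10 of 22 all NAA libraries lay above the mock libraries, against 5.28% of all tested genes. LAX2 (AT2G21050), an influx carrier, had 26.0, 27.1 and 30.7 RPKM with NAA, against 8.63, 9.41 and 9.07 RPKM with mock (log2 fold change 1.53, SE 0.24, adjusted p = 0.0167), with mock libraries within 1 RPKM of each other. WAG2 (AT3G14370), a kinase that acts on auxin carriers, had 1.62, 2.48 and 1.90 RPKM with NAA, against 0.456, 0.441 and 0.609 RPKM with mock (log2 fold change 0.99, SE 0.16, adjusted p = 0.0167). LAX2 lost its call without any 1 of its 6 libraries (adjusted p = 0.0521 to 0.083), and WAG2 without NAA library 2, NAA library 3, mock library 1 or mock library 2 (adjusted p = 0.0604 to 0.0918).

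Among growth regulators, 2 of 10 HD-ZIP II transcription factor genes were called higher and none lower (median 0.08). HAT2 (AT5G47370) had 110.1, 150.4 and 121 RPKM with NAA, against 57.0, 43.8 and 43.5 RPKM with mock (log2 fold change 1.38, SE 0.16, adjusted p = 0.00275), and ATHB17 (AT2G01430) had 1.87, 1.47 and 2.08 RPKM with NAA, against 0.161, 0.241 and 0.316 RPKM with mock (log2 fold change 1.18, SE 0.16, adjusted p = 0.00711). The cell-wall loosening expansins had 2 of 14 called higher (median 0.26). EXPA4 (AT2G39700) had 156, 183 and 187 RPKM with NAA, against 117, 76.9 and 102 RPKM with mock (log2 fold change 0.84, SE 0.15, adjusted p = 0.0277), and EXPA3 (AT2G37640) had 33.2, 35.8 and 33.1 RPKM with NAA, against 23.61, 18.7 and 20.5 RPKM with mock (log2 fold change 0.68, SE 0.12, adjusted p = 0.0277). The groups did not overlap in either gene. Of 24 XTH genes, for enzymes that cut and rejoin xyloglucan, XTH19 (AT4G30290) alone was called, at 49.5, 34.0 and 47.9 RPKM with NAA, against 19.9, 15.2 and 19.8 RPKM with mock (log2 fold change 1.21, SE 0.19, adjusted p = 0.0167). BAS1 (AT2G26710), whose enzyme inactivates brassinosteroids, had 11.2, 14.1 and 12.9 RPKM with NAA, against 6.08, 3.88 and 4.36 RPKM with mock (log2 fold change 1.26, SE 0.15, adjusted p = 0.00304) and was the called member among 9 brassinosteroid and gibberellin genes. HAT2, ATHB17 and BAS1 were called in every fit that left out a library. EXPA4 lost its call without NAA library 2, NAA library 3, mock library 2, mock library 3 or any wild-type mock library (adjusted p = 0.0585 to 0.111), EXPA3 without any NAA library, mock library 2, mock library 3 or any wild-type mock library (adjusted p = 0.0585 to 0.168) and XTH19 without NAA library 1, NAA library 3 or mock library 2 (adjusted p = 0.0654 to 0.0918). With only the 6 libraries of the line neither expansin was called, and with median-ratio scaling XTH19 was not.

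In the list of cytokinin response and metabolism 1 of 12 tested members was called higher and 1 lower (median -0.20), and without wild-type NAA library 3 there were 2 higher and 1 lower, and with either scaling 2 higher and none lower. AHP6 (AT1G80100), an inhibitor of cytokinin signalling, had 2.63, 2.77 and 3.05 RPKM with NAA, against 0.440, 0.664 and 0.870 RPKM with mock (log2 fold change 1.21, SE 0.16, adjusted p = 0.00672). ARR5 (AT3G48100), a response regulator gene that cytokinin induces, had 0.650, 0.220 and 0.227 RPKM with NAA, against 1.76, 1.69 and 1.58 RPKM with mock (log2 fold change -0.98, SE 0.19, adjusted p = 0.047). Both are low genes, and in each the groups did not overlap. ARR5 was the called gene nearest the threshold. Its call was lost without NAA library 2, NAA library 3, any mock library, wild-type NAA library 1, wild-type NAA library 2, wild-type mock library 1 or wild-type mock library 2 (adjusted p = 0.061 to 0.197), and also with median-ratio scaling or quantile normalization. AHP6 was called in every fit that left out a library. It was tested only through the NAA libraries of the line, so its call is a description.

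The 11 lower genes held 1 member of the lists, ARR5. AT4G15390 had 9.37, 3.57 and 4.86 RPKM with NAA, against 17.1, 28.1 and 19.6 RPKM with mock (log2 fold change -1.76, SE 0.29, adjusted p = 0.0189), and AT5G06730 had 7.08, 7.27 and 12.9 RPKM with NAA, against 22.7, 33.8 and 30.5 RPKM with mock (log2 fold change -1.60, SE 0.21, adjusted p = 0.00538). OSM34 (AT4G11650), an osmotin-like gene, was the most abundant, at 134, 184 and 169 RPKM with NAA, against 270.2, 587 and 375 RPKM with mock (log2 fold change -1.27, SE 0.23, adjusted p = 0.0351). Its mock libraries ranged over more than 2-fold, yet the lowest was above every NAA library. MES9 (AT4G37150), a methyl esterase gene, had 5.11, 7.91 and 5.70 RPKM with NAA, against 13.1, 17.3 and 11.2 RPKM with mock (log2 fold change -1.03, SE 0.18, adjusted p = 0.0333). PMEPCRA (AT1G11580), for a pectin methylesterase, had 74.2, 116 and 87.2 RPKM with NAA, against 159, 169 and 150.1 RPKM with mock (log2 fold change -0.80, SE 0.15, adjusted p = 0.0465), and FLS5 (AT5G63600), of the flavonol synthase family, had 30.7, 34.3 and 26.9 RPKM with NAA, against 48.2, 60.1 and 50.2 RPKM with mock (log2 fold change -0.77, SE 0.14, adjusted p = 0.0371). The remaining lower genes, AT1G24147, AT2G15780, AT5G46080 and AT4G15270, are not named in the annotation used and had log2 fold changes between -1.05 and -0.83. AT5G06730 alone was called in every fit that left out a library. Without any 1 of the libraries of the line between 2 and 4 of the 11 remained called.

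Of 6 tested TAA and YUC genes, which make auxin from tryptophan, limma called none in the line, and 2 were lower and none higher at an unadjusted p under 0.05 (median log2 fold change -0.10). TAA1 (AT1G70560) had 6.47, 5.63 and 5.11 RPKM with NAA, against 10.7, 10.1 and 7.58 RPKM with mock (-0.63, adjusted p = 0.162). The groups of TAA1 did not overlap, and the difference did not pass the threshold. YUC6 (AT5G25620) had 0.893, 1.25 and 0.832 RPKM with NAA, against 1.28, 1.80 and 1.37 RPKM with mock (-0.32, adjusted p = 0.518).

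Upstream of that step all but 1 of 11 tryptophan synthesis genes had log2 fold changes below 0 (58.6% of all tested genes), with a median of -0.75, and none was called. At an unadjusted p under 0.05 from limma 7 of the 11 were lower (5.02% of all tested genes). In 7 of 11 all NAA libraries lay below all mock libraries (7.31% of all tested genes). ASA1 (AT5G05730), for the rate-limiting anthranilate synthase, had 41.0, 52.4 and 77.7 RPKM with NAA, against 78.2, 172 and 93.6 RPKM with mock (-0.96, adjusted p = 0.379). TSB1 (AT5G54810), for a tryptophan synthase subunit, had 121, 191 and 208 RPKM with NAA, against 242, 465 and 266 RPKM with mock (-0.87, adjusted p = 0.276). Mock library 2 was the highest of the 6 in both. All 9 genes of the indole-3-acetaldoxime and nitrilase route were likewise below 0 (median -0.61, 5 of 9 lower at an unadjusted p under 0.05). So were all 15 indole glucosinolate and camalexin genes (median -0.47, 7 of 15), against 58.6% of all tested genes below 0. None was called with all 12 libraries, and without wild-type NAA library 3 limma called 1 gene of each of these 2 lists lower. CYP79B2 (AT4G39950), which opens that route from tryptophan, had 54.8, 42.3 and 200.4 RPKM with NAA, against 152, 364 and 249 RPKM with mock (-1.61, adjusted p = 0.323). NIT4 (AT5G22300), a nitrilase gene, had 18.1, 23.2 and 24.2 RPKM with NAA, against 32.8, 54.4 and 36.8 RPKM with mock (-0.87, adjusted p = 0.101). NAA library 3 of CYP79B2 lay within the mock range, while the groups of NIT4 did not overlap. The camalexin synthesis gene PAD3 (AT3G26830) had 20.2, 18.4 and 81.9 RPKM with NAA, against 48.4, 79.5 and 129.9 RPKM with mock (-1.31, adjusted p = 0.554).

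**Figure D3:**
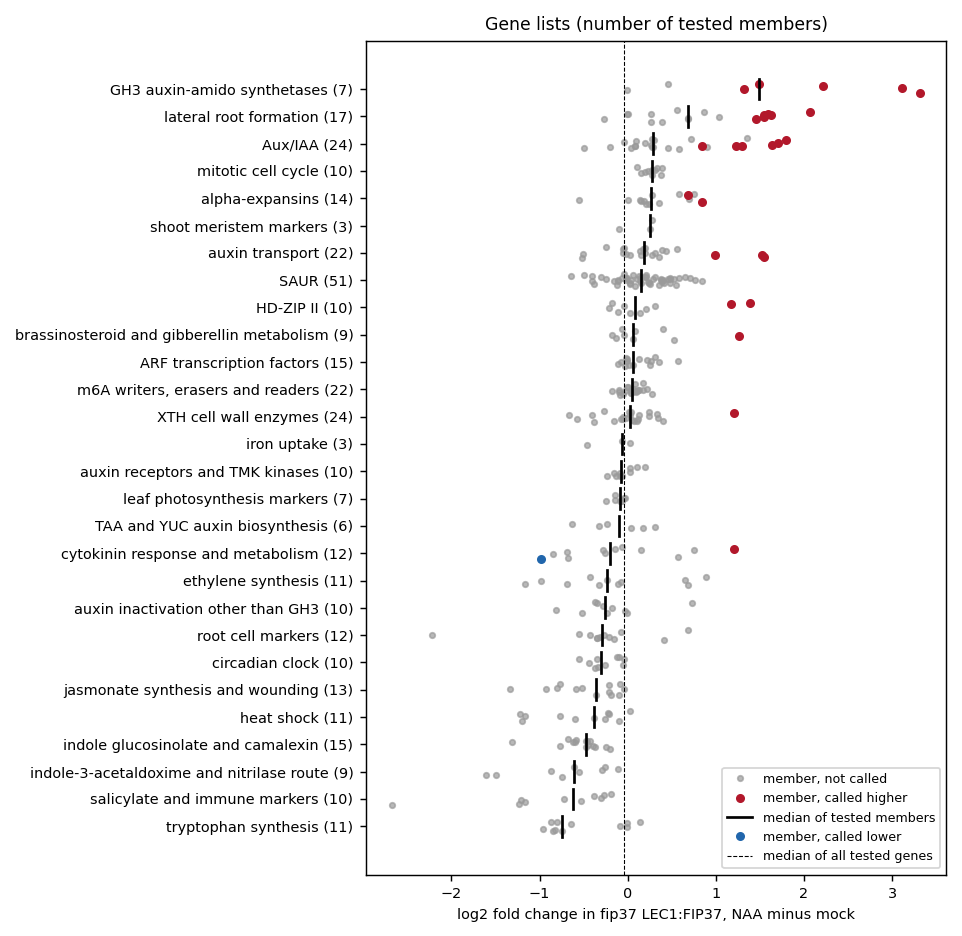
Log2 fold change with NAA in the line for each tested member of the gene lists, sorted by list median (black bars); the number of tested members stands behind each name. Red points were called higher and the blue point called lower; GH3 genes have the highest median at 1.49 and tryptophan synthesis genes the lowest at -0.75, against -0.04 for all tested genes (dashed line).

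Of 51 tested SAUR genes, a large class of early auxin genes, limma called none in the line. The median was 0.15, and at an unadjusted p under 0.05 there were 7 higher and 1 lower, against 3.29% and 5.02% of all tested genes. SAUR62 (AT1G29430) had 11.02, 8.69 and 7.002 RPKM with NAA, against 5.86, 4.09 and 4.46 RPKM with mock (0.76, adjusted p = 0.0711), and SAUR63 (AT1G29440) had 8.42, 7.27 and 3.91 RPKM with NAA, against 4.69, 2.03 and 2.85 RPKM with mock (0.84, adjusted p = 0.303). SAUR10 (AT2G18010) had 1.35, 0.732 and 1.24 RPKM with NAA, against 0.249, 0.200 and 0.394 RPKM with mock (0.71, adjusted p = 0.197). SAUR62 and SAUR63 are near-identical copies in a cluster, and the sources used here do not give how reads matching several copies were counted, so their single values are uncertain. Without wild-type NAA library 3 1 of the 51 was called higher.

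The genes of auxin perception and of the m6A machinery gave no call. Of 15 ARF genes none was called (median 0.06, 1 higher at an unadjusted p under 0.05 from limma), with ARF5 (AT1G19850) highest at 21.2, 31.1 and 27.6 RPKM with NAA, against 15.8, 21.3 and 15.7 RPKM with mock (0.57, adjusted p = 0.344). Of 10 genes of TIR1/AFB receptors and TMK kinases none was called and none reached an unadjusted p under 0.05 (median -0.07, log2 fold changes between -0.23 and 0.20). Of 22 m6A writer, eraser and reader genes none was called (median 0.05), and none reached an unadjusted p under 0.05. The largest of these were the reader genes ECT9 (AT1G27960) (0.27) and ECT11 (AT1G09810) (0.22). These log2 fold changes lay within 2 standard errors of 0.

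The stress and defence lists gave no call. Salicylate and immune markers were all below 0 (10 of 10, median -0.62, 5 lower at an unadjusted p under 0.05), as were 58.6% of all tested genes. Of all tested genes 5.02% were lower at that p. They summed to 115 to 222 RPKM with NAA, against 202 to 374 RPKM with mock. PR1 (AT2G14610), a marker of salicylate responses, had 1.31, 0.354 and 18.7 RPKM with NAA, against 31.4, 106 and 3.55 RPKM with mock (-2.67, adjusted p = 0.479). PR1 varied widely within each group, and the groups overlapped. All 13 jasmonate genes were below 0 (median -0.35, 2 lower at an unadjusted p under 0.05), with LOX4 (AT1G72520) at 2.496, 3.398 and 10.7 RPKM with NAA, against 8.04, 24.7 and 11.4 RPKM with mock (-1.33, adjusted p = 0.504). Heat shock genes summed to 48.9 to 67.3 RPKM with NAA, against 74.6 to 114 RPKM with mock, and 10 of 11 were below 0 (median -0.39). None passed the test with all 12 libraries, none reached an unadjusted p under 0.05, and 2 of the 11 were called lower without wild-type NAA library 3. Ethylene synthesis genes had log2 fold changes of both signs (median -0.24, 2 of 11 higher and 2 lower at an unadjusted p under 0.05, against 3.29% and 5.02% of all tested genes), with ACS2 (AT1G01480) at -1.16 and ACS8 (AT4G37770) at 0.88. All 10 clock genes lay below 0 (median -0.30, 1 lower at an unadjusted p under 0.05). None of either list was called.

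The mitotic cell cycle list lay on the other side. All 10 tested members were above 0 (41.4% of all tested genes), with a median of 0.27, 2 were higher at an unadjusted p under 0.05 from limma, and none was called. CYCB1;4 (AT2G26760), a mitotic cyclin gene, had 2.26, 3.298 and 2.66 RPKM with NAA, against 1.90, 1.63 and 2.01 RPKM with mock (0.39, adjusted p = 0.402). KNOLLE (AT1G08560), for the syntaxin of cell plate formation, had 11.5, 15.0 and 13.9 RPKM with NAA, against 10.9, 8.64 and 10.7 RPKM with mock (0.38, adjusted p = 0.602). CDKB1;1 (AT3G54180), for a mitotic kinase and the neighbour of FIP37, had 5.64, 5.46 and 4.78 RPKM with NAA, against 4.57, 3.68 and 3.74 RPKM with mock (0.34, adjusted p = 0.392). In these 3 genes the NAA libraries all lay above the mock libraries, as in 5 of the 10 and in 5.28% of all tested genes.

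Set beside wild type, fewer genes were called in the line. With the same fit 1509 genes were called in wild type (8.35%), 605 higher and 904 lower (3.35% and 5%), from 6 other libraries. Of the 68 genes called higher in the line, 45 were also called higher in wild type, which is 66.2% of the 68 and 7.44% of the 605, while 22 were not called there and 1, AT5G02440, was called lower. Of the 11 called lower, 2 were also called lower in wild type (0.221% of the 904). The 605 genes called higher in wild type had a median log2 fold change of 0.03 in the line, against 0.94 in wild type. In the line 53.6% of them were above 0, as were 41.4% of all tested genes. The 904 genes called lower in wild type had a median of -0.04 in the line, against -0.67 in wild type, and 58.5% of them were below 0, as were 58.6% of all tested genes. Without wild-type NAA library 3 4112 genes were called in wild type. The 1941 higher among them had a median of -0.04 in the line, and 42.4% were above 0.

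**Figure D4:**
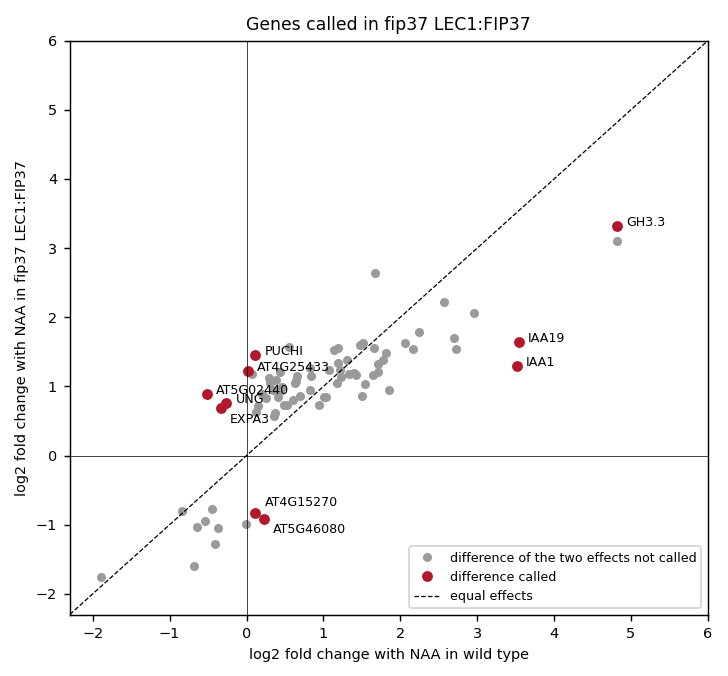
Log2 fold change with NAA in the line (vertical axis) against that in wild type (horizontal axis) for the 79 genes called in the line. Red points are the 10 genes whose 2 effects were called different; IAA1, IAA19 and GH3.3 lie below the dashed line of equal effects, and PUCHI and AT5G02440 above it.

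The difference between the effects was tested directly, and 306 genes were called (1.69%), 115 with a higher and 191 with a lower fold change in the line than in wild type (0.636% and 1.06%). With quantile normalization of the libraries the split was 257 higher and 236 lower. Without wild-type NAA library 3 2237 were called, which include 304 of the 306. Of the 79 genes called in the line 10 were among the 306, and the other 69 were not shown to differ. IAA1 (AT4G14560) gained less in the line, where it had 22.2, 33.5 and 26.3 RPKM with NAA and 9.36, 8.87 and 13.3 RPKM with mock, than in wild type, where it had 242, 219.9 and 211 RPKM with NAA and 16.9, 19.7 and 19.4 RPKM with mock (difference -2.22, SE 0.24, adjusted p = 0.00271). IAA19 (AT3G15540) differed in the same direction, with 130.2, 113 and 149 RPKM in wild type with NAA, against 8.74, 11.2 and 11.04 RPKM with mock (difference -1.91, SE 0.32, adjusted p = 0.0155). GH3.3 (AT2G23170) was the third such gene (difference -1.51, SE 0.30, adjusted p = 0.0319). All 3 were called higher in both genotypes.

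For 5 genes called higher in the line the fold change was larger there than in wild type. PUCHI (AT5G18560) had 1.11, 0.752 and 0.994 RPKM in wild type with NAA, against 0.521, 0.744 and 1.19 RPKM with mock, so that its wild-type groups overlapped (difference 1.34). AT5G02440 had 19.1, 21.2 and 20.1 RPKM with NAA in the line, against 10.9, 10.7 and 9.67 RPKM with mock, and 9.64, 11.2 and 15.1 RPKM in wild type with NAA, against 17.2, 16.8 and 17.64 RPKM with mock (difference 1.39, SE 0.20, adjusted p = 0.00756). It was thus called in opposite directions in libraries of the 2 labels. EXPA3 (difference 1.02, SE 0.17, adjusted p = 0.0146), UNG (AT3G18630) (difference 1.02) and AT4G25433 (difference 1.19, SE 0.25, adjusted p = 0.0383) were the others. PUCHI and UNG were tested only through the NAA libraries of the line, so their differences are given as a description. UNG, which encodes a uracil DNA glycosylase, had 3.91, 3.70 and 3.45 RPKM with NAA, against 1.68, 1.69 and 1.95 RPKM with mock (log2 fold change 0.76, SE 0.13, adjusted p = 0.0263), and AT4G25433 had 7.61, 9.11 and 6.08 RPKM with NAA, against 3.83, 2.33 and 2.06 RPKM with mock (log2 fold change 1.22, SE 0.18, adjusted p = 0.00997). Of the lower genes AT5G46080 and AT4G15270 differed (difference -1.15, SE 0.24, adjusted p = 0.0383, and difference -0.95, SE 0.20, adjusted p = 0.0355), with wild-type log2 fold changes of 0.23 and 0.12.

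Of these 10 differences those of IAA1, IAA19 and AT5G02440 were called in every fit that left out a library. The difference of EXPA3 was called in all but the fit without wild-type mock library 2 (adjusted p = 0.0527). GH3.3 was called in 4 fits, AT4G25433 in 3, and AT5G46080 and AT4G15270 in 2 each, with adjusted p up to 0.123. The other 8 differences, PUCHI and UNG apart, were also called without wild-type NAA library 3. Their own NAA effect in the line lost its call for UNG without any 1 of its 6 libraries or wild-type mock library 3 (adjusted p = 0.0558 to 0.14), for AT5G02440 without NAA library 2, NAA library 3, mock library 2 or mock library 3 (adjusted p = 0.0634 to 0.087) and for AT4G25433 without NAA library 2 or mock library 2 (adjusted p = 0.0638 to 0.0699).

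**Figure D5:**
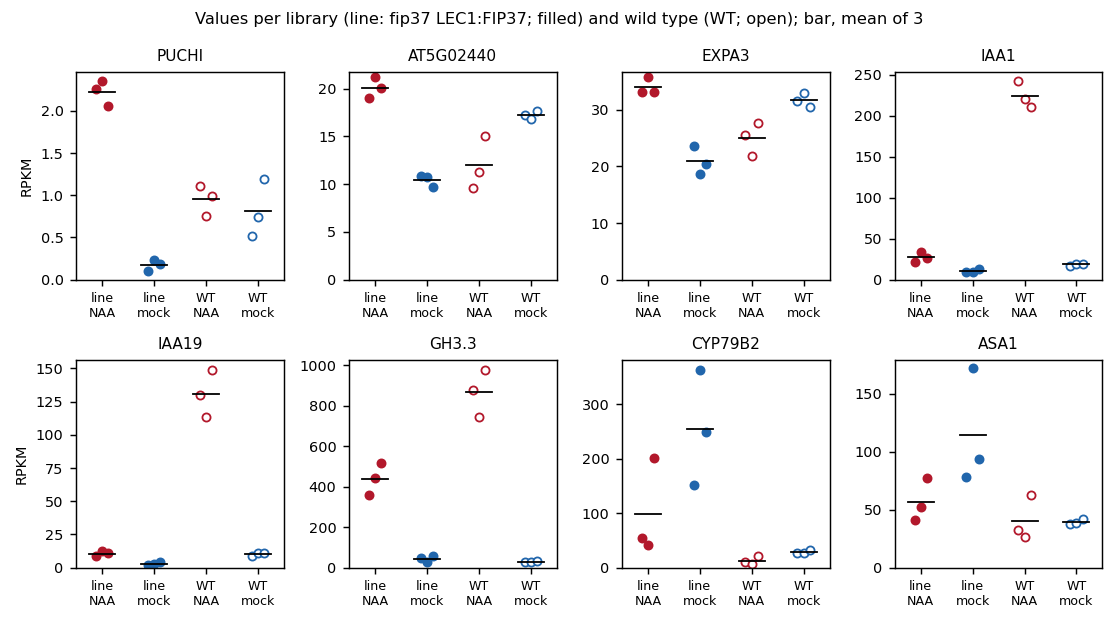
RPKM per library (points) with the mean of 3 (bar) in the line with NAA, the line with mock, wild type with NAA and wild type with mock, for 8 genes. PUCHI, AT5G02440 and EXPA3 are highest in the line with NAA, IAA1, IAA19 and GH3.3 in wild type with NAA, and CYP79B2 and ASA1 in mock libraries of the line.

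Among all genes whose effects differed, the 5 lowest negative differences belonged to genes called higher in wild type and not called in the line. In the line GSTU25 (AT1G17180), for a glutathione transferase, had 34.2, 19.3 and 30.9 RPKM with NAA, against 19.6, 24.3 and 44.2 RPKM with mock, and GSTU24 (AT1G17170), of the same family, had 62.1, 81.1 and 63.0 RPKM with NAA, against 69.3, 76.9 and 80.0 RPKM with mock. In wild type GSTU25 had 63.4, 36.0 and 192 RPKM with NAA, against 4.41, 4.05 and 4.20 RPKM with mock (difference -3.90, SE 0.68, adjusted p = 0.0184), and GSTU24 differed by -3.55 (adjusted p = 0.00584). In GSTU25 every mock library of the line was above every mock library of wild type, and GSTU24 had 92.8, 66.4 and 224 RPKM with NAA, against 8.09, 11.5 and 9.31 RPKM with mock, in wild type. Wild-type NAA library 3 was the highest of its group in both genes, and without it the differences were -3.24 and -3.05. UGT74E2 (AT1G05680) and UGT73B4 (AT2G15490), for glycosyltransferases, differed by -3.42 and -3.06 (adjusted p = 0.0146 and 0.0165). With mock UGT74E2 had 14.9, 29.3 and 15.9 RPKM in the line and 4.10, 5.25 and 6.24 RPKM in wild type. UGT73B4 had 37.5, 53.4 and 65.3 RPKM with mock in the line and 9.58, 12.3 and 13.1 RPKM in wild type. Wild type with NAA had 52.8, 30.5 and 114 RPKM of UGT74E2 and 77.3, 57.5 and 208 RPKM of UGT73B4. Without wild-type NAA library 3 their differences were -2.92 and -2.52. SAUR68 (AT1G29490) stayed under 1 RPKM in the line and had 13.4, 10.4 and 19.8 RPKM in wild type with NAA, the group through which alone it was tested, so its difference of -3.29 is a description. As for SAUR62 and SAUR63, the counting of reads that match several copies is not known, so its values are uncertain. The symbol SAUR68 is also given to AT1G29510.

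On the other side, the iron transporter gene IRT1 (AT4G19690) and the iron reductase gene FRO2 (AT1G01580) were low in the line, IRT1 at 0, 0 and 0 RPKM with NAA, against 0.0347, 0.0559 and 0.0366 RPKM with mock and FRO2 at 0.248, 0.400 and 0.116 RPKM with NAA, against 0.152, 0.322 and 0.201 RPKM with mock. In wild type IRT1 had 0.0275, 0 and 2.32 RPKM with NAA, against 9.55, 10.99 and 13.9 RPKM with mock (difference 2.98), and FRO2 had 0.514, 0.491 and 0.637 RPKM with NAA, against 5.48, 5.89 and 7.44 RPKM with mock (difference 2.26). TIP2;3 (AT5G47450), a vacuolar water channel gene of roots, had 0.302, 0.0780 and 0 RPKM with NAA, against 0.836, 0.337 and 0.0980 RPKM with mock in the line. In wild type it had 1.88, 2.11 and 0.958 RPKM with NAA, against 16.9, 19.9 and 20.7 RPKM with mock (difference 2.64). These 3 genes were under 1 RPKM in all 6 libraries of the line and were tested only through wild-type mock, so no fall could have been seen in the line, and their differences restate the wild-type values. ADS1 (AT1G06080), a fatty acid desaturase gene, had 2.52, 3.59 and 2.02 RPKM with NAA, against 1.72, 2.08 and 1.90 RPKM with mock (difference 2.17, SE 0.30, adjusted p = 0.00648), and ATSDI1 (AT5G48850), a gene of sulfur deficiency, had 0.631, 3.19 and 2.79 RPKM with NAA, against 0.940, 2.63 and 3.68 RPKM with mock (difference 2.53, SE 0.54, adjusted p = 0.0418). ADS1 and ATSDI1 were called lower in wild type and not called in the line. Of the differences not set by a level near 0, that of ATSDI1 was called in 3 of the 12 fits that left out a library, GSTU25 in 9 and UGT73B4 in 11, and those of GSTU24, UGT74E2 and ADS1 in all 12.

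Of the 79 genes called in the line, 9 held a reproducible m6A peak in wild type with NAA (11.4%, 95% Wilson interval 6.11% to 20.3%), against 17.1% of all tested genes. With mock 4 of the 79 held one (5.06%, 1.99% to 12.3%), against 21.6% of all tested genes. The peaks were called by the authors in each wild-type replicate, and were counted where both replicates held them and the summit lay in the gene. No m6A list of the line was analysed here. MAKR4, IAA19, SETH6, AT1G59740 and FLS5 held a peak with NAA only by these calls, and IAA13, HB-8, NPY5 and AT4G24275 with both treatments, all named after their values were seen. The RNA of MAKR4, IAA19, SETH6 and AT1G59740 was itself called higher with NAA in wild type. The part of RNA level in their NAA-only peaks was not tested. In the 35S:FIP37 and 35S:FIP373A lists 4 and 3 of the 79 held a peak (5.06% and 3.80%), against 12.5% and 11.3% of all tested genes, and in the list of tmk4-1 with NAA 2 did (2.53%, against 6.01%). The intervals cover counting error over genes only, and their depth is that of the m6A libraries.

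Just inside the threshold lay ARR5, AT1G10750 and PMEPCRA, with adjusted p of 0.047, 0.047 and 0.0465 and log2 fold changes of -0.98, 0.95 and -0.80. Just outside lay LBD29, LOG3 (AT2G37210) and CYP78A7 (AT5G09970), with adjusted p of 0.051, 0.0517 and 0.0517 and log2 fold changes of 1.04, 0.83 and 1.21. LOG3, for an enzyme that activates cytokinins, had 1.90, 1.72 and 2.31 RPKM with NAA, against 0.568, 0.668 and 0.783 RPKM with mock, and its groups did not overlap. It averaged under 1 RPKM outside the NAA libraries of the line, as LBD29 did outside wild-type NAA, so both values are descriptions.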

How the data were processed

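RNA-seq came from strand-specific dUTP libraries, per the labels' protocols. The authors deposited RPKM values per gene, and STAR 2.5.3a and TAIR10 are named in the submitters' processing notes. How reads were assigned to genes, and what became of multiply mapped reads, is not given in the sources. RPKM keep no total depth, so only the relative depth of libraries was estimated, from the steps between low values. The genes that averaged at least 1 RPKM over the 12 libraries were fitted on log2(RPKM + 1) with limma 3.58.1 (trend, 4 group means, R 4.3.3), and p-values were Benjamini-Hochberg adjusted over 18072 genes. Symbols came from RefSeq's TAIR10.1 gene table, which matched 32548 of 34262 identifiers. No column was left unassigned.

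The m6A peaks in wild type were called by the authors with MACS 2.2.6 in each replicate against its own input, per the file headers. Those deposited lists give a pileup signal, a fold enrichment over input, and -log10 p and q values. The deposited lists for 35S:FIP37, 35S:FIP373A and tmk4-1, 1 per genotype, give p-values and an enrichment ratio, and no source names their caller. Wild-type peaks were counted where both replicates held them with an overlap of at least 50% of the shorter peak, and a gene held a peak where the summit lay in its span.

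Genes named in the text were the 20 called genes with the highest fold change, the called lower genes, the called members of the 29 gene lists, up to 3 other members of a list with under 3 called, the 5 largest differences between genotypes in each direction, and FIP37 and CDKB1;1. IAA2, IAA5, GH3.9, GH3.17, LBD29, UNG, AT4G25433, AT5G02440 and the genes beside the threshold lie outside this rule and were named after their values were seen. A called gene that the rule names is not reported here. The genes and lists were chosen with earlier results of these data known. The 21 alternatives were another pseudocount, 2 other filters, 2 scalings, a replicate block, library weights, the line alone with and without the block, and each of 12 libraries left out; the peak counts had 2 more. The fit was tested on simulated data. Promoter motifs were not analysed here. Scripts ran in Python 3.11.15 with pandas 2.3.3, NumPy 2.4.6, SciPy 1.17.1 and matplotlib 3.10.9.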

Additional observations from a re-analysis of the deposited data

Results flagged for a closer look

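The following NAA effects differed between libraries of the line and of wild type by limma's test of the difference itself (adjusted p under 0.05). Each value is the log2 fold change in the line minus that in wild type, and beside it stands the value without wild-type NAA library 3, which was far from the rest of its group.

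Among the genes called within the line, the difference was 1.34 for PUCHI (1.36 without that library), 1.39 for AT5G02440 (1.56), 1.19 for AT4G25433 (1.21), 1.02 for UNG (1.02) and 1.02 for EXPA3 (1.09). The difference was -1.51 for GH3.3 (-1.41 without that library), -1.91 for IAA19 (-1.81), -2.22 for IAA1 (-2.26), -1.15 for AT5G46080 (-1.27) and -0.95 for AT4G15270 (-0.94).

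Among the 5 largest differences in each direction over all tested genes, the value was 2.98 for IRT1 (3.55 without that library), 2.64 for TIP2;3 (2.43), 2.53 for ATSDI1 (2.76), 2.26 for FRO2 (2.30) and 2.17 for ADS1 (2.26). The value was -3.90 for GSTU25 (-3.24 without that library), -3.55 for GSTU24 (-3.05), -3.42 for UGT74E2 (-2.92), -3.29 for SAUR68 (AT1G29490) (-3.06) and -3.06 for UGT73B4 (-2.52). IRT1, TIP2;3 and FRO2 were under 1 RPKM in all 6 libraries of the line and passed the filter only through wild-type mock, so their values restate the wild-type fall. SAUR68 was likewise under 1 RPKM in the line and passed only through wild-type NAA, and its values are uncertain because the counting of reads that match several SAUR copies is not known. PUCHI and UNG passed only through the NAA libraries of the line. The values of these 6 genes are descriptions, and those of the other 14 kept their sign and their call without wild-type NAA library 3.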

How the results depend on the processing

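The line's 79 calls stood beside 125 with quantile normalization, 627 with library weights and 684 in the fit of its 6 libraries with the replicate block. Library weights gave NAA library 3 of the line 4.31, its other libraries 0.37 to 1.07 and wild-type NAA library 3 0.12. Leaving out 1 library gave 31 to 201 calls, the most without wild-type NAA library 3 and the fewest without mock library 2 of the line. The other alternatives gave 72 to 108, with 77 under the replicate block on all 12 libraries (56 higher, 21 lower, 55 of them among the 79). The 306 differences stood beside 192 with no filter on low values, 493 with quantile normalization, 4235 with library weights and 364 with the replicate block, and leaving out 1 library gave 68 to 2237. Stricter wild-type peaks lowered the share of called genes with a peak to 2.53% with NAA and 1.27% with mock, against 11.4% and 5.06% at the authors' threshold. The share of all tested genes was also lower, 8.88% with NAA and 13.1% with mock, against 17.1% and 21.6%. An overlap of 1 bp left the shares of called genes as they were and gave 17.2% and 21.7% of all tested genes. For the named genes, 959 of the values under an alternative kept direction and side of the threshold, 168 kept direction but lost the call, and none reversed. The cause of these changes was not tested.

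Same-numbered libraries were not treated as pairs in the main fit, and the correlations do not settle whether they were. Deviations from the group means of same-numbered NAA and mock libraries correlated at 0.40, -0.10 and 0.08 in the line and at 0.28, -0.05 and 0.30 in wild type. In the line NAA library 1 correlated best with mock library 1, NAA library 2 with mock library 3, and NAA library 3 with mock library 2. In wild type NAA libraries 1 and 3 correlated best with the mock library of the same number, and NAA library 2 with mock library 1. The gene-list counts under other settings, and the wild-type counts without NAA library 3, were chosen after seeing the data. Median-ratio scaling and quantile normalization moved the median fold change of all tested genes in the line to -0.00 and 0.01, against -0.04 as deposited. RPKM give no total depth, so a change in a gene near 0 could be missed for lack of reads.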

Other observations

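Several genes of vascular development were among the 68 higher genes of the line. They were picked out after their values were seen and form no list that was tested. HB-8 (AT4G32880), a homeobox gene of procambium cells, had 13.2, 17.1 and 15.5 RPKM with NAA, against 7.54, 7.54 and 7.16 RPKM with mock (log2 fold change 0.95, SE 0.13, adjusted p = 0.00672). BHLH32 (AT3G25710), also known as TARGET OF MONOPTEROS 5, acts in the divisions that widen vascular tissue and had 17.3, 16.4 and 14.7 RPKM with NAA, against 6.48, 6.74 and 5.48 RPKM with mock (log2 fold change 1.24, SE 0.13, adjusted p = 0.00158). CLE44 (AT4G13195), which encodes a peptide that maintains vascular stem cells, had 10.2, 9.62 and 11.1 RPKM with NAA, against 4.51, 3.48 and 4.17 RPKM with mock (log2 fold change 1.17, SE 0.15, adjusted p = 0.00544). In all 3 genes the groups did not overlap, the call was kept in each fit that left out 1 of the 12 libraries, and the fold changes in wild type were 0.82, 1.21 and 1.65. LBD4 (AT1G31320), a transcription factor gene, had 6.96, 8.11 and 7.09 RPKM with NAA, against 2.89, 3.09 and 2.33 RPKM with mock (log2 fold change 1.16, SE 0.15, adjusted p = 0.00577). NAC076 (AT4G36160), or VASCULAR-RELATED NAC-DOMAIN 2, had 1.72, 2.38 and 2.22 RPKM with NAA, against 0.667, 0.760 and 0.762 RPKM with mock (log2 fold change 0.84, SE 0.14, adjusted p = 0.0243), and it was tested only through its NAA libraries in the line.

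Genes tied to the auxin-related kinase PINOID were also called. PBP1 (AT5G54490), for a protein that binds PINOID, had 10.2, 9.42 and 10.2 RPKM with NAA, against 4.15, 5.48 and 4.49 RPKM with mock (log2 fold change 0.95, SE 0.16, adjusted p = 0.0243), and NPY5 (AT4G37590), of a family that acts with PINOID in organ formation, had 12.5, 15.3 and 15.2 RPKM with NAA, against 8.66, 7.66 and 8.24 RPKM with mock (log2 fold change 0.73, SE 0.13, adjusted p = 0.0333). The groups did not overlap in either gene, and 5 and 4 of the 12 fits kept the calls. These genes too were chosen after their values were seen.

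The nitrilase genes NIT4 (AT5G22300) and NIT2 (AT3G44300) had log2 fold changes of -0.87 and -0.75 in the line (adjusted p = 0.101 and 0.197) and of 1.95 and 1.63 in wild type. Neither was called in the line, and the differences of -2.82 and -2.38 between the effects were called (adjusted p = 0.00146 and 0.00363).

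Of 10 tested genes for auxin oxidation, methylation, glucosylation and conjugate hydrolysis limma called none in the line, 1 was higher and none lower at an unadjusted p under 0.05, and the median log2 fold change was -0.26. The 7 leaf photosynthesis markers, GL2 among them, had a median of -0.08 and the 3 tested shoot meristem markers 0.25. None of these was called or reached an unadjusted p under 0.05. Of 5 iron uptake genes 3 were tested, and IRT1 and FRO2 among them were under 1 RPKM in all 6 libraries of the line, so their values there are not read as a result.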
